A study of Mus musculus with 40 samples.

Results

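Nascent RNA was set against mature RNA, gene by gene, in macrophages 1 hr after Kdo2-lipid A (KLA). The aim was to find genes whose nascent RNA had changed by more than their mature RNA, and the reverse. Nascent RNA was the exon tags of GRO-Seq, a nuclear run-on assay that labels RNA still being made by engaged polymerase. Mature RNA was the exon tags of polyA RNA-Seq. A gene was a member when it had at least 20 tags, scaled to a library of 10 M (mega) tags, in both strains in either assay at 1 hr, and each assay was centred on its median over the members. Of 22865 genes in the table, 10240 (44.8%) were members. Of these, 6231 reached the level in both assays, 499 in GRO-Seq only and 3510 in RNA-Seq only, and 9831 were coding and 409 non-coding RefSeq entries.

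The cells were peritoneal macrophages elicited with thioglycollate, which provokes a sterile inflammation, and taken as the cells that adhere after lavage. They came from mice of the inbred strains C57BL6/J and BALBc/J, and both the treated and the untreated cells carry the elicitation. GRO-Seq had KLA at 100 ng/ml for 1 hr and no treatment, with 1 library for each strain, which makes 4 libraries. RNA-Seq had no treatment, 1 hr and 4 hr of KLA, with 1 library for each strain, which makes 6. The strains served as the 2 libraries of each condition, and ages were not given in the labels. Nothing in the labels ties a library to its own animal, and all p-values therefore rest on the spread among these libraries alone, part of which may be technical.

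KLA is the lipid A core of lipopolysaccharide and is sensed by Toll-like receptor 4, which signals through MyD88 to NF-kB and MAP kinases and through TRIF to IRF3 and the interferon response. Primary response genes are transcribed at once by factors already in the cell, and secondary response genes need new proteins or secreted interferon beta first. A run-on assay reports polymerases on the gene, whereas polyA RNA is what has been completed, spliced and not yet degraded. Its level therefore follows transcription with a delay that grows with gene length and with the stability of the transcript.

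The depth was 39.4 to 48.3 M tags for GRO-Seq, with 3.07 to 4.34 M in exons, and 17.0 to 20.3 M for RNA-Seq, with 88.7 to 90.6% in exons. The median member had 31.5 nascent tags per 10 M in C57BL6/J after KLA and 47.2 to 52.2 in the other 3 GRO-Seq libraries, so that library stood apart. Without it, nascent RNA was called higher in 584 and lower in 625 genes, against 643 and 569 with it, and the ratio change in 512 and 660, against 540 and 560 with it. The nascent change then rested on BALBc/J alone. Without centring, the median member changed by -0.31 on the log2 scale in nascent RNA, by -0.19 in mature RNA at 1 hr and by -0.46 at 4 hr, and all changes below are relative to the median member. Markers of macrophages summed to 5122 and 6930 nascent tags and to 920262 and 923748 mature tags per 10 M after KLA (C57BL6/J and BALBc/J). Markers of T and NK cells summed to 46.6 and 105.6 nascent and 10.6 and 18.4 mature tags, those of B cells to 23.1 and 53.2 nascent and 53.7 and 54.5 mature tags, and those of neutrophils to 67.1 and 118.2 nascent and 345.8 and 305.1 mature tags. Those of mesothelial cells and fibroblasts summed to 33.2 and 112.0 nascent and 2048 and 4026 mature tags, and dendritic cell markers to 521.7 and 353.3 nascent and 3547 and 2164 mature tags. Whether these other cells take part in any result was not tested. At the threshold, Snora69 and Snord33 entered with 20.02 tags in the lower strain and 1700086O06Rik, 4930579G18Rik and Cml1 with 20.19, while Aars2, Clec1b, Dusp9, Phf16 and S100a11 stayed out with 19.98.

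After 1 hr of KLA, nascent RNA had changed in about as many genes upward as downward, and mature RNA in far fewer and mostly upward. Nascent RNA rose in 643 genes (6.28% of the 10240 members) and fell in 569 (5.56%). Mature RNA at 1 hr rose in 250 genes (2.44%) and fell in 61 (0.596%), and at 4 hr it rose in 1116 (10.9%) and fell in 987 (9.64%). A call needed an adjusted p under 0.05 (limma with Benjamini-Hochberg adjustment over all members) and a log2 change of at least 1. Without centring the calls were 403 higher and 1307 lower for nascent RNA, 209 and 160 for mature RNA at 1 hr, and 737 and 2156 at 4 hr. Membership was set on the 1 hr KLA libraries. A low gene could therefore enter through its rise, and a gene could drop out through its fall. These counts describe the members and not all genes.

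Among the 643 genes with a nascent rise, mature RNA was also higher at 1 hr in 184 (28.6%) and higher at 4 hr in 445 (69.2%). Their median log2 change was 1.50 in nascent RNA, 0.41 in mature RNA at 1 hr and 1.68 in mature RNA at 4 hr. Among the 569 genes with a nascent fall, mature RNA was lower at 1 hr in 10 (1.76%) and lower at 4 hr in 307 (54.0%), with medians of -1.25 in nascent RNA, -0.17 in mature RNA at 1 hr and -1.09 at 4 hr. Without the C57BL6/J KLA GRO-Seq library these 4 shares were 30.0%, 69.0%, 2.40% and 53.9%. The nascent change then rested on BALBc/J alone. On C57BL6/J alone, the shares of risen genes and the 4 hr share of fallen genes were lower. Of the 569, 295 passed the level in RNA-Seq only, against 3510 of the 10240 members. A gene under the level in both assays after KLA was left out, so the filter works against finding mature falls at 1 hr. Among the 9028 genes with no nascent call, mature RNA rose at 1 hr in 63 (0.698%) and fell in 49 (0.543%). The nascent and mature changes at 1 hr share no library. They do come from the same fit, with a common spread per gene over both assays, so their errors are not independent. Both mature changes share the untreated RNA-Seq libraries and are given side by side only, and the 4 hr change is from a separate fit.

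**Figure D1:**
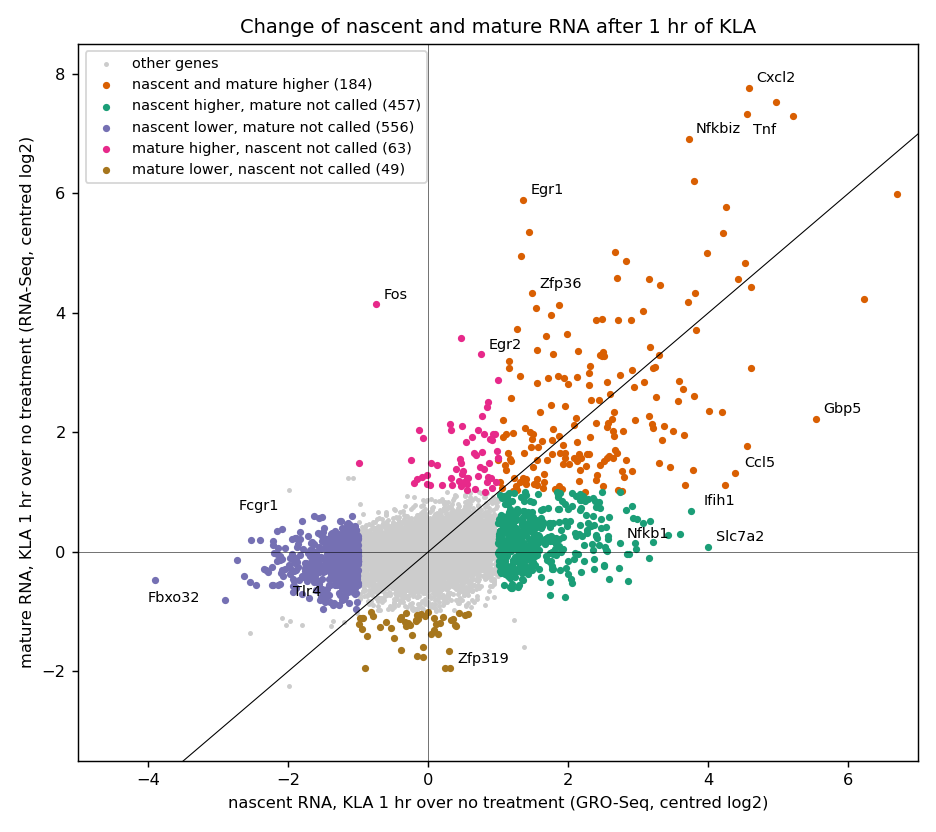
Each point is 1 of the 10240 genes, with the log2 change of nascent RNA on the x axis and of mature RNA on the y axis, KLA 1 hr over no treatment, each centred on the median gene. Coloured points are called genes and the diagonal marks equal change. The 457 genes with a nascent rise and no mature call lie along the right arm, the 556 with a nascent fall and no mature call along the left arm, and Cxcl2, Tnf and Nfkbiz lie above the diagonal at the top right.

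The levels behind these classes differed in when they moved. The 184 genes that rose in both had a median of 193 nascent tags per 10 M after KLA and 43.0 without treatment, and their median mature level was 186 without treatment, 1020 at 1 hr and 1330 at 4 hr. The 457 genes that rose in nascent RNA with no mature call had 125 nascent tags after KLA and 53.2 without treatment, and mature medians of 276 without treatment, 252 at 1 hr and 649 at 4 hr. The 556 genes that fell in nascent RNA with no mature call had 25.2 nascent tags after KLA and 105 without treatment, and mature medians of 442, 329 and 142. The 63 genes that rose in mature RNA with no nascent call had 73.9 nascent tags after KLA and 75.8 without treatment, and mature medians of 253, 720 and 268. Their median at 4 hr was near its start, but mature RNA at 4 hr was called higher in 24 of the 63, against 10.9% of all members. Both mature calls use the same untreated libraries, so the choice of the 63 by their 1 hr rise favours this share. Of the 457, mature RNA at 4 hr was called higher in 63.7%, and of the 556 it was called lower in 53.6%.

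Gene span is the genomic distance from start to end of the transcript. It differed between genes whose mature RNA had risen by 1 hr and those whose had not. The quartiles were 3.6 and 18.6 kb for the 184 genes that rose in both. For the 457 with a nascent rise alone they were 10.4 and 61.6 kb, so the spans overlapped. Among genes with a nascent rise, mature RNA was higher at 1 hr in 97 of 208 genes under 10 kb (46.6%), in 70 of 202 genes of 10 to 30 kb (34.7%) and in 17 of 233 genes over 30 kb (7.30%). At 4 hr the shares were 63.5%, 71.3% and 72.5%. In genes with no nascent call, the shares with higher mature RNA at 1 hr also fell with span, at 1.53%, 0.649% and 0.118%. The median span was 8.4 kb for the 184 genes that rose in both, 33.3 kb for the 291 that rose in nascent RNA at 1 hr and in mature RNA at 4 hr only, and 21.3 kb for all members. In classes of the untreated mature level of under 100, 100 to 1000 and at least 1000 tags per 10 M, genes under 10 kb had shares of 40.4%, 56.1% and 40.5%, genes of 10 to 30 kb 36.6%, 31.8% and 41.7%, and genes over 30 kb 4.00%, 8.96% and 6.12%. The lowest share was over 30 kb in each class, while the other spans differed little at the highest level. Among genes with a nascent fall, mature RNA was lower at 1 hr in 4 of 72, 6 of 188 and 0 of 309 genes in the same order of span, and at 4 hr in 58.3%, 53.2% and 53.4%. The share under 10 kb was 36.1% without either BALBc/J GRO-Seq library, when the nascent change rests on C57BL6/J alone. These shares are descriptions of the called genes, with no test of their difference.

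**Figure D2:**
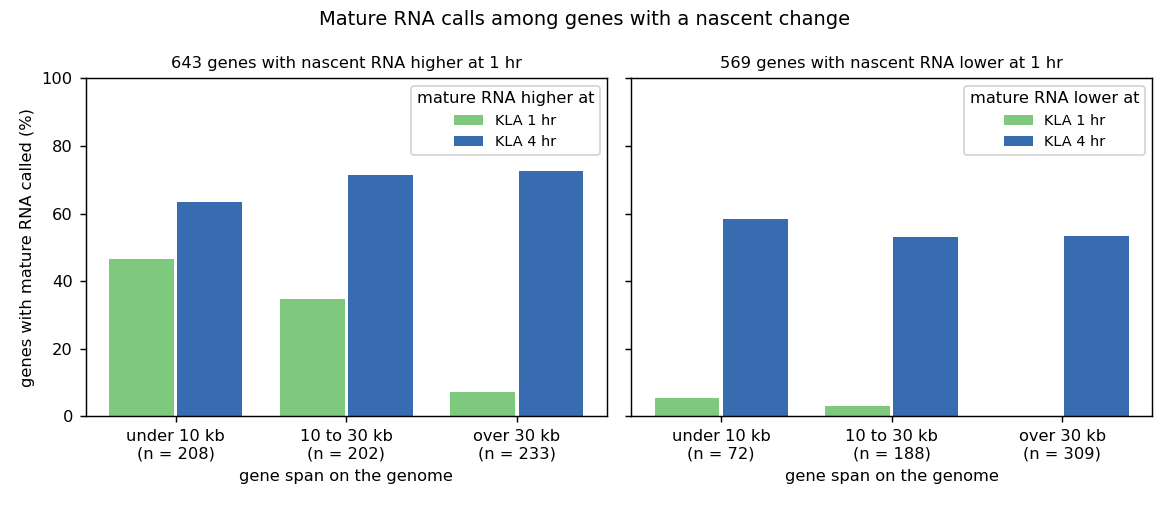
Bars give the percent of genes with a nascent rise (left) or fall (right) at 1 hr whose mature RNA was called in the same direction at 1 hr and at 4 hr of KLA, by gene span, with n under each pair. At 1 hr the share falls with span, to 7.30% of risen genes over 30 kb, whereas the 4 hr bars all lie between 53.2% and 72.5%.

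The ratio of nascent over mature RNA, compared with its value in untreated cells, rose in 540 genes (5.27%) and fell in 560 (5.47%) with an adjusted p under 0.05 and a change of at least 1. Every called gene changed in the same direction in both strains. The strains are the only 2 libraries of a condition and their spread enters the call, so the call rule favours this. Without centring, the calls were 408 higher and 781 lower. They were 302 and 281 without the strain term and 177 and 216 with 50 tags in place of 10 added before taking logarithms, and with 2 added 1084 were lower. By construction this change is the nascent change minus the mature change. Of the 540, nascent RNA had risen in 348 and mature RNA had fallen in 26, and in 168 neither was called alone. Of the 560, nascent RNA had fallen in 362 and mature RNA had risen in 73, and in 128 neither was called alone. The genes whose ratio rose with a nascent rise spanned a median of 30.5 kb, and those whose ratio fell with a mature rise 4.3 kb. Genes whose ratio fell with a nascent fall spanned a median of 38.4 kb, and those whose ratio rose with a mature fall 7.0 kb. In these groups the longer spans went with a nascent change and the shorter with a mature change, whichever way the ratio moved.

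The largest rises of the ratio were in genes with strong nascent RNA at 1 hr whose mature RNA at 1 hr was still far below its level at 4 hr. The 10 largest rises are given for coding genes with the level in both assays. They were in Slc7a2, Itgal, Gbp5, Met, Phldb1, Ifih1, Icosl, Ccl5, Hivep1 and Rapgef2, with log2 changes of 3.00 to 3.92. Nascent RNA was called higher in all 10, mature RNA at 1 hr in 3 (Gbp5, Ifih1 and Ccl5) and mature RNA at 4 hr in all 10. Their spans ran from 4.74 to 133.0 kb, and 7 exceeded 30 kb.

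Slc7a2 (chr8:41947746-42007424, mm9, 59.7 kb), a cationic amino acid transporter that supplies arginine, had 646 nascent tags per 10 M in C57BL6/J and 844 in BALBc/J after KLA, against 22.6 and 98.5 without treatment. Its mature RNA was at 107 and 261 tags without treatment, 120 and 193 at 1 hr, and 7031 and 6070 at 4 hr. Nascent RNA was higher in both treated libraries with no overlap, while the mature values at 1 hr lay within the untreated range. The ratio rose by 3.92 ± 0.35 (SE, n = 2 libraries per condition, adjusted p = 1.05e-07 by limma with Benjamini-Hochberg adjustment), from a nascent change of 4.00 ± 0.25 and a mature change of 0.08 ± 0.25.

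Gbp5 (chr3:142159897-142185308, 25.4 kb), an interferon-induced guanylate-binding GTPase that promotes inflammasome activity, had 540 and 464 nascent tags after KLA, against 4.32 and 3.73 without treatment (here and below C57BL6/J and then BALBc/J). In RNA-Seq it had 94.2 and 124 tags without treatment, 337 and 643 at 1 hr, and 16418 and 24716 at 4 hr. Both assays were higher after 1 hr with no overlap, and the mature rise was the smaller of the pair, with log2 changes of 5.54 ± 0.17 in nascent and 2.23 ± 0.17 in mature RNA. Gbp5 belongs to a family of close relatives, so that shared tags make its level uncertain.

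Ifih1 (chr2:62433849-62484312, 50.5 kb) encodes MDA5, a cytosolic sensor of double-stranded RNA. It had 1438 and 1216 nascent tags after KLA, against 81.0 and 78.9 without treatment, and its mature RNA stood at 353 and 421 tags without treatment, 570 and 936 at 1 hr, and 12075 and 18482 at 4 hr. The ratio rose by 3.11 ± 0.24 (limma, Benjamini-Hochberg adjusted p = 1.59e-08), and neither assay overlapped between 1 hr and no treatment. Ccl5 (chr11:83339280-83344020), a chemokine for T cells and monocytes, was the exception in length, with a span of 4.74 kb. Ccl5 had 163 and 172 nascent tags after KLA, against 0.508 and 1.24 without treatment, where a few tags carry the value. Its RNA-Seq values were 165 and 151 tags without treatment, 253 and 490 at 1 hr, and 30780 and 20008 at 4 hr.

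Nfkb1 (chr3:135247618-135354511, 107 kb), the p105 and p50 subunit of NF-kB and itself a target of NF-kB, had 608 and 594 nascent tags after KLA, against 121 and 94.6 without treatment. Its mature RNA stood at 689 and 571 tags without treatment, 638 and 556 at 1 hr, and 3972 and 4442 at 4 hr. The nascent groups did not overlap, the mature groups at 0 and 1 hr did, and the ratio rose by 2.59 ± 0.20 (limma, Benjamini-Hochberg adjusted p = 1.60e-08). Parp14, a mono-ADP-ribosyltransferase of the interferon response, rose in the same way, with 864 and 849 nascent tags after KLA, against 222 and 231 without treatment, and 503 and 490 mature tags without treatment, 479 and 439 at 1 hr, and 8719 and 16180 at 4 hr. Ccnd2, the cell cycle regulator cyclin D2, had 68.5 and 87.8 nascent tags after KLA, against 11.2 and 11.2 without treatment, and its mature RNA stood at 25.3 and 29.6 tags without treatment, 26.6 and 31.3 at 1 hr and 2004 and 1829 at 4 hr.

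**Figure D3:**
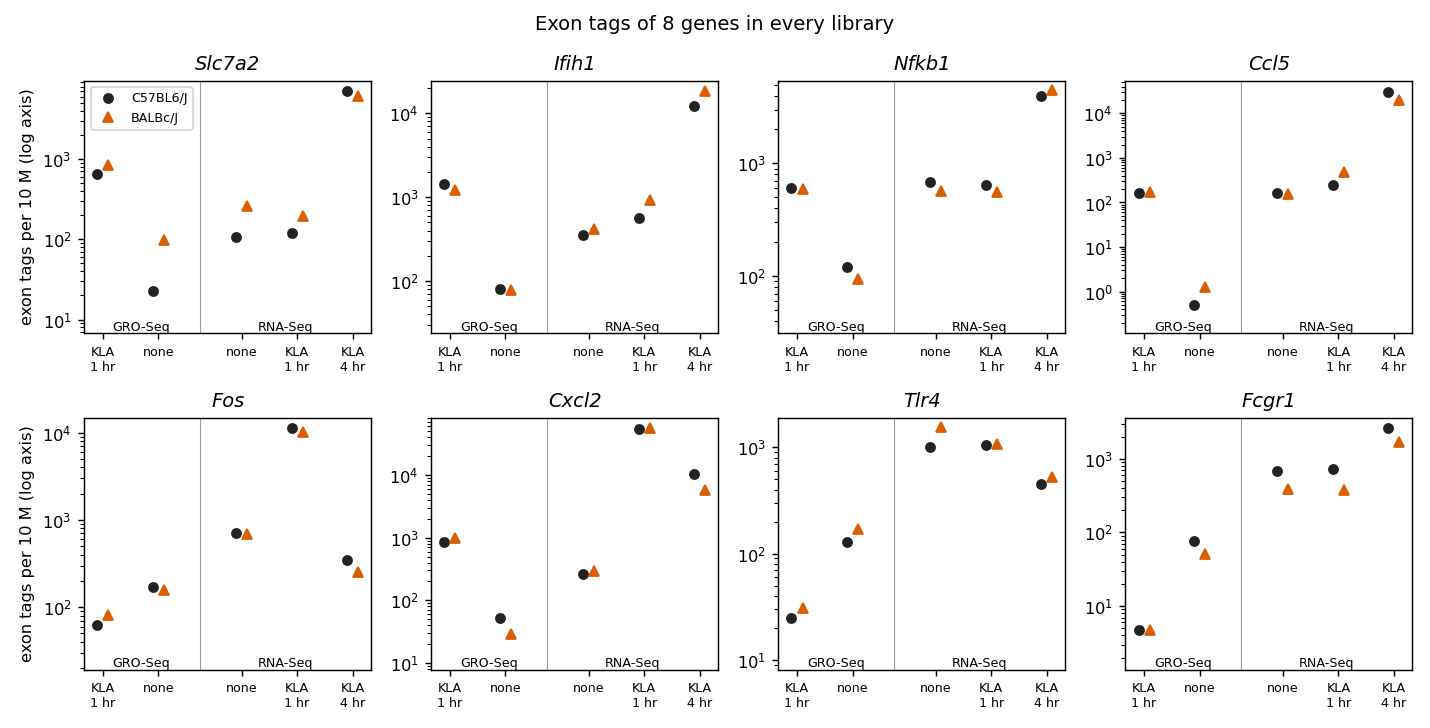
Exon tags per 10 M in every library for 8 genes on log axes, with GRO-Seq left and RNA-Seq right of the line in each panel, circles for C57BL6/J and triangles for BALBc/J, 1 library each. In Slc7a2, Ifih1, Nfkb1 and Ccl5 nascent RNA is high at 1 hr and mature RNA is high at 4 hr, Fos and Cxcl2 have their highest mature RNA at 1 hr, and nascent RNA of Tlr4 and Fcgr1 is lower after KLA with mature RNA at 1 hr near its untreated level.

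The falls of the ratio were led by immediate early genes and short chemokine genes, whose mature RNA had risen by more than their nascent RNA. With GRO-Seq after KLA at 1 hr only, these values do not tell which of the pair changed first. The 10 largest falls are given for coding genes with the level in both assays. They were in Fos, Egr1, Nfkbiz, Cxcl2, Gdf15, Zfp36, Tnf, Egr2, Cxcl1 and Ier2, with log2 changes of -4.89 to -2.54. Mature RNA was called higher at 1 hr in all 10, with changes of 3.31 to 7.77, and nascent RNA in 7, with no nascent call in Fos, Gdf15 and Egr2. Their spans ran from 1.52 to 27.3 kb, and 9 were under 10 kb.

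Fos (chr12:86814850-86818219, 3.37 kb), a subunit of the transcription factor AP-1, had 62.2 and 82.1 nascent tags after KLA, against 169 and 159 without treatment. The mature RNA of Fos stood at 701 and 694 tags without treatment, 11428 and 10144 at 1 hr, and 348 and 255 at 4 hr. Nascent Fos RNA was lower after KLA in both strains while its mature RNA was higher than in any other RNA-Seq library. The ratio fell by 4.89 ± 0.20 (limma, Benjamini-Hochberg adjusted p = 1.17e-12), with a nascent change of -0.75 ± 0.14 that is under the size of a call and a mature change of 4.14 ± 0.14. Egr1, a zinc finger transcription factor induced by MAP kinase signals, had 167 and 236 nascent tags after KLA, against 76.0 and 115 without treatment. Mature Egr1 RNA stood at 210 and 238 tags without treatment, 14122 and 10066 at 1 hr, and 189 and 226 at 4 hr, so that only the 1 hr libraries were high.

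Cxcl2 (chr5:91332924-91334964, 2.04 kb), a chemokine that recruits neutrophils, had 860 and 973 nascent tags after KLA, against 52.3 and 28.6 without treatment. Mature Cxcl2 RNA was at 267 and 296 tags without treatment, 53424 and 55922 at 1 hr, and 10462 and 5822 at 4 hr. Both assays rose with no overlap between groups, by 4.58 in nascent and 7.77 in mature RNA, and the ratio fell by 3.18 ± 0.21 on the log2 scale (limma, Benjamini-Hochberg adjusted p = 3.28e-09). Tnf (chr17:35336335-35338941, 2.61 kb), the cytokine tumour necrosis factor, had 3750 and 3498 nascent tags after KLA, against 211 and 165 without treatment, and mature RNA of 516 and 603 tags without treatment, 81653 and 75374 at 1 hr and 33115 and 26254 at 4 hr. Nfkbia, the inhibitor that holds NF-kB in the cytoplasm, had 1333 and 1543 nascent tags after KLA, against 126 and 118 without treatment, and mature RNA of 697 and 704 tags without treatment, 42195 and 48102 at 1 hr, and 16292 and 13027 at 4 hr. Zfp36 encodes tristetraprolin, which binds AU-rich elements and promotes decay of cytokine transcripts, and its mature RNA stood at 2150 and 2103 tags without treatment, 40047 and 33955 at 1 hr, and 7716 and 7838 at 4 hr, with 464 and 578 nascent tags after KLA, against 210 and 251 without treatment.

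Ifnb1, encoding interferon beta, and Il10, an anti-inflammatory cytokine, were members through RNA-Seq only, so they were outside this ranking. Ifnb1 had 10.6 and 11.9 nascent tags after KLA and was listed at 0 in both untreated GRO-Seq libraries, and its mature RNA stood at 1.18 and 0.52 tags without treatment, 228 and 596 at 1 hr, and 24.2 and 16.1 at 4 hr. Il10 had 15.4 and 12.4 nascent tags after KLA, against 2.03 and 2.28 without treatment, and 3.53 and 6.24 mature tags without treatment, 438 and 333 at 1 hr, and 198 and 182 at 4 hr. In both genes the 1 hr mature values were the highest of the 3 times. At these low nascent levels the fitted change depends on the 10 tags added before taking logarithms.

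Start sites of the genes that rose in both assays more often had a peak of p65, the NF-kB subunit that activates transcription. A peak within 1 kb of the start in all 4 p65 lists after 1 hr of KLA (2 libraries per strain) was present in 77.7% of the 184 genes that rose in both, in 51.2% of the 457 with a nascent rise alone, in 33.6% of the 556 with a nascent fall alone and in 39.0% of all members. Among the 73 genes whose ratio fell with a mature rise the share was 74.0%, and among the 63 with a mature rise and no nascent call 61.9%. These shares are descriptions without a test, and the p65 lists are of the same cells and strains. Of the 10 genes named above for the largest rise of the ratio 7 had such a peak in all 4 lists. Of the 10 named for the largest fall 8 did.

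The core of the NF-kB motif, GGANNTTCC or its reverse complement GGAANNTCC, was searched on both strands in RefSeq promoters of 250 bases before to 50 bases after the start (GRCm38.p6). It was present in 4.26% of 32851 promoters, in 4.79% of the 7408 matched members, in 22 of 135 matched genes that rose in both (16.3%) and in 13 of 337 matched genes with a nascent rise alone (3.86%). The 32851 promoters include several starts of some genes, whereas in the members and their groups only the first start listed for a gene was searched. Among genes whose ratio fell with a mature rise, 10 of 46 held it (21.7%), and among those whose ratio rose with a nascent rise 15 of 258 (5.81%). A match is a description of letters, not a binding site. Promoters of Cxcl2, Cxcl1 and Tnf, in which the ratio fell, and of Gbp5, in which it rose, are shown because all 4 hold a match. The match is marked in capitals, and the motif thus occurs on either side.
Cxcl2 promoter, chr5:90903649-90903948, plus strand: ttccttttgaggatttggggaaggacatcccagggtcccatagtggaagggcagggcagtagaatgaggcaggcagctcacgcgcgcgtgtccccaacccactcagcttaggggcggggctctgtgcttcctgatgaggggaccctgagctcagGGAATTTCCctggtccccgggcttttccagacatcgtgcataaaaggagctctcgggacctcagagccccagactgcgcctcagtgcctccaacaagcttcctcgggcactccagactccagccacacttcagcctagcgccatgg
Cxcl1 promoter, chr5:90890995-90891294, plus strand: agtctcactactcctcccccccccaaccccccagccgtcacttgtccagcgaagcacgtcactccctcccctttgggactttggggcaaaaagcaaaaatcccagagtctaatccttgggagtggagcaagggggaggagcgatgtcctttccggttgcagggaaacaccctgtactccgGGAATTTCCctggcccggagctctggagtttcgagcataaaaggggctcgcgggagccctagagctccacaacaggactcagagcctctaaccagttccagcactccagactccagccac
Tnf promoter, chr17:35201958-35202257, minus strand: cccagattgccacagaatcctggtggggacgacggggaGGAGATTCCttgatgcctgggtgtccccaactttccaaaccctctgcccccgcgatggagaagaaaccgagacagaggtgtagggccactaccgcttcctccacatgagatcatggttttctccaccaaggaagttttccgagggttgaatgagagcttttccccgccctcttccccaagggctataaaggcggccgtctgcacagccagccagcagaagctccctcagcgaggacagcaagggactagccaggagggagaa
Gbp5 promoter, chr3:142496684-142496983, plus strand: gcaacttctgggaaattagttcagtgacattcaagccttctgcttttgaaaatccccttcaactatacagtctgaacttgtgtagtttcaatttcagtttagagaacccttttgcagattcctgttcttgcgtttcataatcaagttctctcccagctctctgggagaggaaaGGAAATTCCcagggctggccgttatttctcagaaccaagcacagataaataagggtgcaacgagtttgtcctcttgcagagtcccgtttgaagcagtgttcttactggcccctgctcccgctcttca

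Genes that mark macrophages, or that serve their lysosomes, had lower nascent RNA in part, with few calls in mature RNA at 1 hr. Among 34 members of a macrophage identity list, nascent RNA fell in 9 (among them Cd36, Fcgr1, Fcgr3, Irf8, Tlr4 and Trem2) and rose in 3, against 5.56% and 6.28% of all members, while mature RNA at 1 hr fell in 0 and rose in 2, against 0.596% and 2.44%. At 4 hr, mature RNA was higher in 9 and lower in 3 of the 34. Among 40 lysosomal genes nascent RNA fell in 9 and rose in 1, against the same shares of all members, and mature RNA was called at 1 hr in 0, and at 4 hr higher in 2 and lower in 2. By an unadjusted p under 0.05, 3028 of the 10240 members differed in mature RNA at 1 hr, so the counts of 0 rest on the adjusted p and the size of the change.

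Tlr4 (chr4:66488844-66503830, 15.0 kb), the receptor of KLA, had 24.8 and 30.7 nascent tags after KLA, against 129 and 169 without treatment. Its mature RNA stood at 1001 and 1547 tags without treatment, 1045 and 1065 at 1 hr, and 448 and 526 at 4 hr. Nascent Tlr4 RNA was lower in both treated libraries with no overlap, by 1.72 ± 0.16 on the log2 scale, and the mature values at 1 hr lay within the untreated range. The ratio fell by 1.70 ± 0.23 (limma, Benjamini-Hochberg adjusted p = 1.34e-05), and the mature change of -0.90 at 4 hr was under the size of a call.

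Lipa, the lysosomal acid lipase, had 152 and 268 nascent tags after KLA, against 1075 and 1258 without treatment, and mature RNA of 42359 and 42136 tags without treatment, 37498 and 31492 at 1 hr and 18819 and 17581 at 4 hr. Atp6v0d2, a subunit of the lysosomal proton pump, had 88.9 and 92.0 nascent tags after KLA, against 504 and 391 without treatment, and mature RNA of 20640 and 14905 tags without treatment, 25197 and 14212 at 1 hr and 8678 and 5053 at 4 hr. Both genes had non-overlapping nascent values, lower after KLA, with mature values at 4 hr below those of either earlier time. Fcgr1, the high-affinity IgG receptor, went the other way at 4 hr. It had 4.81 and 4.70 nascent tags after KLA, against 75.7 and 50.7 without treatment, while its mature RNA stood at 692 and 394 tags without treatment, 721 and 375 at 1 hr, and 2625 and 1678 at 4 hr.

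The largest nascent fall shown in the plot of nascent against mature change was in Fbxo32, a muscle atrophy ubiquitin ligase subunit and FoxO target, which was picked after its values were seen. Fbxo32 had 8.41 and 24.7 nascent tags after KLA, against 379 and 586 without treatment, and mature RNA of 3222 and 4028 tags without treatment, 2082 and 2368 at 1 hr and 60.7 and 85.1 at 4 hr. Its log2 change was -3.90 ± 0.14 in nascent RNA, -0.48 ± 0.14 in mature RNA at 1 hr and -5.02 ± 0.18 in mature RNA at 4 hr. The mature fall of Fbxo32 at 1 hr was under the size of a call although both treated libraries lay below both untreated ones.

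Nascent RNA fell in most of the clustered histone genes that were members, 15 of 68 in the table. Of the 15, nascent RNA fell in 10 and rose in 0, against 5.56% and 6.28% of all members. Mature RNA at 1 hr was called in 0 of the 15, and the ratio fell in 11, against 5.47% of all members. The level was passed in GRO-Seq only by 9 of the 15. Most transcripts of these genes end in a stem-loop and carry no polyA tail, so that polyA RNA-Seq captures few of them. Hist1h1e, a linker histone H1, had 47.1 and 76.4 nascent tags after KLA, against 304 and 541 without treatment, with mature RNA of 5.89 and 3.64 tags without treatment, 3.72 and 3.78 at 1 hr and 2.47 and 2.30 at 4 hr. Hist1h1c, another H1 gene, had 62.7 and 93.4 nascent tags after KLA, against 342 and 505 without treatment, and unlike Hist1h1e was high in mature RNA, with 4074 and 3342 tags without treatment, 3526 and 2382 at 1 hr and 802 and 587 at 4 hr.

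At the level of the ratio itself, with KLA at 1 hr, nascent over mature RNA was at least 4-fold above the median gene in 1161 genes (11.3%) and at least 4-fold below it in 1100 (10.7%), with an adjusted p under 0.05 (limma, Benjamini-Hochberg). Over all members the ratio had an SD of 1.73 on the log2 scale after KLA, against 1.57 without treatment, and its change had an SD of 0.658. Without centring, 199 genes were called higher and 5668 lower, because the median gene then had a ratio of -2.21. Of the 1161, 497 passed the level in GRO-Seq only and so had to be high. Among the genes that passed in both assays, 715 were called higher and 630 lower. Of the 1161, 30.4% overlapped another gene, against 18.0% of all members, and 17.1% were non-coding, against 4.00% of all. Whether tags were counted by strand is not stated in the sources used here, so that nascent tags of an overlapping gene cannot be told apart from those of the gene itself.

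**Figure D4:**
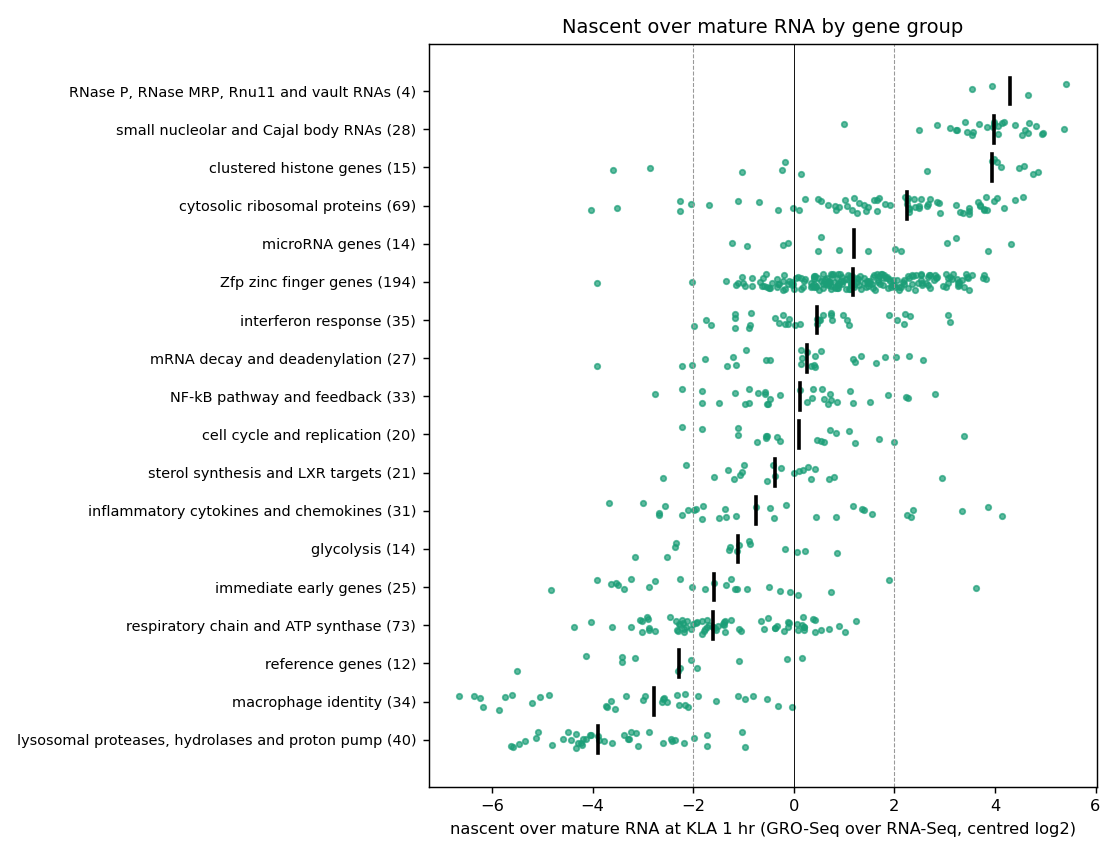
Each point is a gene, placed by its centred log2 ratio of nascent over mature RNA at KLA 1 hr, in 18 gene lists with the number of members beside each name. Black bars are list medians, the solid line is the median gene and dashed lines mark 4-fold. Lists run from Rmrp, Rpph1, Rnu11 and Vaultrc5, with a median of 4.30, down to lysosomal genes, with a median of -3.89.

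Most members of the lysosomal and macrophage identity lists had little nascent signal for their mature RNA. The ratio was called lower in 35 of 40 lysosomal genes (median -3.89) and in 26 of 34 macrophage identity genes (median -2.78). It was called lower in 26 of 73 genes of the respiratory chain and ATP synthase (median -1.60) and in 8 of 12 reference genes (median -2.28). Of all members 10.7% were called lower, and their median was near 0. The level was passed in RNA-Seq only, which favours a low ratio, by 3 of the 40, 8 of the 34, 45 of the 73 and 4 of the 12. None of these lists had a gene called higher. The 10 lowest ratios are given for coding genes with the level in both assays. They were those of Ctss, Apoe, Itm2b, Lyz2, Ctsd, Cst3, Lgals3, Clec7a, Cd36 and Lgmn, at -6.65 to -5.61. Ctss, the lysosomal protease cathepsin S, had 176 and 287 nascent tags after KLA, against 394 and 478 without treatment, and 110830 and 94983 mature tags without treatment, 124870 and 96342 at 1 hr and 104520 and 65746 at 4 hr. Clec7a, the beta-glucan receptor Dectin-1, had 43.7 and 53.4 nascent tags after KLA, against 286 and 246 without treatment, and 17313 and 12812 mature tags without treatment, 18521 and 12322 at 1 hr, and 8226 and 5076 at 4 hr. In Ctss the groups did not overlap in nascent RNA but its change of -0.57 was under the size of a call, whereas Clec7a was called lower in nascent RNA.

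Decorin, encoded by Dcn, a matrix proteoglycan of fibroblasts, had 1.92 and 4.20 nascent tags and 840 and 1968 mature tags at 1 hr, with a ratio of -4.42. Its mature RNA was high in all 6 RNA-Seq libraries while its nascent RNA was near 0 in all 4 GRO-Seq libraries, at most 10.1 tags. The whole list of fibroblast and mesothelial markers summed to 33.2 and 112.0 nascent and 2048 and 4026 mature tags.

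At the other end, the ratio reached 7.35 over all members. The 10 highest ratios are given for coding genes with the level in both assays. They were those of Hivep1, 3010026O09Rik, Naca, Rapgef2, Nrip1, Slc7a2, Zbtb38, Rps15a, Akna and Icosl, at 4.38 to 5.08. Nascent RNA had risen in 7 of the 10 with KLA, against 6.28% of all members. The KLA GRO-Seq values that ranked the 10 also enter this change, so the ranking favours a nascent rise. Hivep1, a large zinc finger protein that binds NF-kB-like motifs, had 398 and 431 nascent tags after KLA, against 85.6 and 75.3 without treatment, and 86.6 and 79.1 mature tags without treatment, 64.9 and 35.6 at 1 hr and 150 and 370 at 4 hr. Nrip1, the nuclear receptor corepressor RIP140, had 176 and 215 nascent tags after KLA, against 71.6 and 65 without treatment, and its mature RNA stood at 74.2 and 68.7 tags without treatment, 41.5 and 24.8 at 1 hr and 54.3 and 118 at 4 hr. Akna, an AT-hook protein, had 815 and 807 nascent tags after KLA, against 192 and 180 without treatment, and 169 and 171 mature tags without treatment, 158 and 188 at 1 hr and 306 and 456 at 4 hr. Zbtb38 was high in nascent RNA without having risen, with 308 and 400 tags after KLA, against 486 and 654 without treatment.

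Small non-coding RNAs without a polyA tail had high ratios, where 11.3% of all members were called higher. The ratio was called higher in 27 of 28 small nucleolar and Cajal body RNAs (median 3.98) and in 4 of 4 others, Rmrp, Rpph1, Rnu11 and Vaultrc5 (median 4.30). Of these, 25 of the 28 and 3 of the 4 passed the level in GRO-Seq only and so had to be high. Rmrp, the RNA of RNase MRP, had 1061 and 641 nascent tags and 125 and 165 mature tags at 1 hr. The 5 non-coding genes with the highest ratio were 4931406H21Rik, Kcnq1ot1, E030024N20Rik, Tbrg3 and 4930487H11Rik, with ratios of 5.78 to 6.01, and all 5 overlap another gene. Kcnq1ot1, an imprinted antisense transcript that stays in the nucleus, had 574 and 477 nascent tags after KLA, against 1531 and 1325 without treatment, and 53.0 and 38.5 mature tags without treatment, 44.2 and 25.4 at 1 hr and 13.3 and 11.5 at 4 hr.

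Cytosolic ribosomal protein genes, which encode the proteins of both ribosome subunits, had the ratio called higher in 36 of 69 and lower in 5 (median 2.26). Of all members 11.3% were called higher and 10.7% lower. The level was passed in GRO-Seq only by 24 of the 69. Rpl3 had 53.6 and 71.9 nascent tags and 4.79 and 3.78 mature tags at 1 hr, and Rps15a 171 and 246 nascent and 33.0 and 42.7 mature tags. Ribosomal protein genes have many processed copies in the genome, and how reads with several matches were handled is not stated in the sources used here, which leaves their levels uncertain. Zinc finger genes of the Zfp series had a higher ratio in 55 of 194 and a lower one in 2 (median 1.17), against the same 11.3% and 10.7%. Mature RNA at 1 hr fell in 17 and rose in 2 of these Zfp genes, against 0.596% and 2.44% of all members. Zfp319 had 51.9 and 80.3 nascent tags after KLA, against 60.2 and 73.9 without treatment, and its mature RNA stood at 161 and 129 tags without treatment, 23.9 and 24.8 at 1 hr, and 196 and 269 at 4 hr. The mature Zfp319 level at 1 hr was below all other RNA-Seq libraries, while its nascent groups overlapped.

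Response lists were split between both directions of the ratio change. Of 25 immediate early genes, nascent RNA rose in 17 and mature RNA in 18 at 1 hr, and the ratio rose in 1 and fell in 15 (median change -1.42), among them Jun, Dusp1, Ier3, Klf2, Klf6, Btg2, Myc and Nr4a1. Over all members, nascent RNA rose in 6.28%, mature RNA at 1 hr in 2.44% and at 4 hr in 10.9%, and the ratio rose in 5.27% and fell in 5.47%, with which this list and those that follow are to be read. At 4 hr, mature RNA was higher in 8 and lower in 4 of the 25. Of 31 inflammatory cytokines and chemokines, nascent RNA rose in 28, mature RNA in 24 at 1 hr and in 30 at 4 hr. The ratio of the cytokines rose in 9 (Ccl22, Ccl5, Csf1, Cxcl3, Edn1, Il12b, Il27, Lif and Tnfsf15) and fell in 11 (Ccl3, Ccl4, Cxcl1, Cxcl2, Cxcl5, Ifnb1, Il10, Il1a, Il23a, Tnf and Tnfsf9). Il12b, the p40 subunit of interleukins 12 and 23, had 140 and 69.0 nascent tags after KLA, against 0.254 and 0 without treatment, and mature RNA of 2.94 and 2.60 tags without treatment, 19.2 and 17.8 at 1 hr, and 902 and 419 at 4 hr.

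Of 33 listed NF-kB components, targets and inhibitors, nascent RNA rose in 29 and fell in 1, mature RNA rose in 24 at 1 hr and in all 33 at 4 hr, and the ratio rose in 6 and fell in 6. Of 35 interferon response genes, nascent RNA rose in 17, mature RNA in 9 at 1 hr and in all 35 at 4 hr, and the ratio rose in 14 and fell in 1, Irf1, a transcription factor that is itself an early gene. The 14 were Cmpk2, Gbp2, Gbp3, Gbp5, Ifih1, Ifit1, Ifit2, Irg1, Oas3, Oasl1, Oasl2, Parp14, Rsad2 and Stat2. Irgm1, an immunity-related GTPase, had 28.8 and 37.1 nascent tags after KLA, against 42.2 and 40.8 without treatment, and mature RNA of 650 and 749 tags without treatment, 654 and 664 at 1 hr, and 13516 and 15424 at 4 hr. Of 27 genes of mRNA decay and deadenylation, the ratio rose in 0 and fell in 5. Over all members 540 genes rose and 560 fell by the adjusted p and the size of the change, and 4167 differed in either direction at an unadjusted p under 0.05.

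Mir221 and Mir222, neighbouring microRNA genes on chromosome X, rose in both assays. The table counts tags over the short precursor, so that mature RNA here stands for polyadenylated primary transcript. Mir222 was a member through GRO-Seq only, with RNA-Seq tags under the level in both strains at 1 hr. The genes lie next to each other on the same strand, and whether they share a primary transcript was not tested. Mir221 (chrX:18723419-18723514, mm9) had 26.4 and 26.2 nascent tags after KLA, against 5.84 and 3.10 without treatment, and 0 and 3.12 RNA-Seq tags without treatment, 115 and 106 at 1 hr, and 31.1 and 24.7 at 4 hr. Mir222 (chrX:18724018-18724097) had 35.3 and 37.6 nascent tags after KLA, against 9.91 and 7.66 without treatment, and 1.18 and 0.52 RNA-Seq tags without treatment, 19.2 and 8.10 at 1 hr, and 6.91 and 2.30 at 4 hr. The ratio fell by 1.93 ± 0.27 in Mir221 (limma, Benjamini-Hochberg adjusted p = 1.91e-05), and in Mir222 its change of 0.36 ± 0.29 did not pass (limma, Benjamini-Hochberg adjusted p = 0.380). Their mature microRNAs, from RefSeq on GRCm38.p6, are shown because they share the seed GCUACAU (bases 2 to 8, in capitals), by which a microRNA pairs with its targets.
mmu-miR-221-3p, chrX:19146307-19146329, minus strand: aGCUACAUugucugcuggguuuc
mmu-miR-222-3p, chrX:19146901-19146923, minus strand: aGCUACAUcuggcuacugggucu

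Nascent and mature RNA were called in opposite directions in 5 genes, which were picked after their values were seen. Phf13, a chromatin reader, had 42.3 and 74.7 nascent tags after KLA, against 25.2 and 20.9 without treatment, and mature RNA of 225 and 249 tags without treatment, 46.8 and 76.1 at 1 hr and 133 and 152 at 4 hr. Zbtb5, a zinc finger gene, had log2 changes of 1.22 ± 0.16 in nascent and -1.15 ± 0.16 in mature RNA. Map3k8, the kinase Tpl2 that drives ERK signalling after Toll-like receptor 4, had 47.6 and 65.3 nascent tags after KLA, against 154 and 179 without treatment, and mature RNA of 465 and 368 tags without treatment, 867 and 826 at 1 hr, and 1205 and 1379 at 4 hr. In Phf13 and Map3k8 the groups did not overlap in either assay. Gli1, a Hedgehog pathway transcription factor, changed by -2.0 ± 0.20 in nascent and 1.04 ± 0.20 in mature RNA, and Kcnj2, a potassium channel, by -1.15 ± 0.24 and 1.23 ± 0.24. The mature values of Kcnj2 at 1 hr were 404 and 71.3 tags, so its mature level at 1 hr was far higher in C57BL6/J.

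The strains gave nearly the same ratios after KLA. Over 6067 coding genes with the level in both assays, the C57BL6/J minus BALBc/J difference of the centred log2 ratio had a median of 0.062 and an SD of 0.437, and 5905 (97.3%) differed by less than 1. With 1 library per strain and assay this has no test. The difference was at least 2 in 4 genes (Arg2, Oasl1, Wdfy1 and Baiap2l1) and at most -2 in 3 (Gdf15, Cd97 and Fblim1), all 7 picked by that size. Arg2, a mitochondrial arginase, had 20.7 nascent tags in C57BL6/J and 83.1 in BALBc/J after KLA, and 63.3 mature tags in C57BL6/J and 1584 in BALBc/J. Gdf15, a stress-induced cytokine of the TGF-beta family, had 101 nascent tags in C57BL6/J and 64.8 in BALBc/J, and 15809 mature tags in C57BL6/J and 504 in BALBc/J. In both genes the strain with more nascent RNA also had more mature RNA, and the mature difference was the larger.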

How the data were processed

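GRO-Seq and polyA RNA-Seq of KLA-treated and untreated macrophages were analysed from 10 libraries of the 40 samples of the series. The submitters' processing notes name Bowtie 0.12.7, HOMER and the build mm9. Expression was deposited by the authors as log2 of 1 plus exon tags per 10 M, per the file headers, without correction for length. Back-transformed values fell between whole tag numbers by a uniform random fraction, which was dropped to recover whole tags. Each gene was represented by its transcript with the highest mean RNA-Seq value, which left 22865 genes from 29028 transcripts, with 21 unnamed rows left out and 332 genes with several genomic copies kept. One tag is worth 0.207 to 0.254 per 10 M in GRO-Seq and 0.494 to 0.589 in RNA-Seq. Errors given with ± are standard errors of the limma fit over libraries. The p65 peak lists, deposited with a tag signal per peak, were called on each library alone, per the file headers, and only their positions were used.

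Values were log2(tags + 10), centred per library over the members, so fold changes of low genes are understated. limma 3.58.1 in R 4.3.3 fitted 8 libraries at 0 and 1 hr with a strain term within each assay (2 residual and 18.3 prior degrees of freedom), and the 6 RNA-Seq libraries for the 4 hr change (2 residual and 8.38 prior), and scripts were tested on simulated data. A ratio was called at an adjusted p under 0.05 (Benjamini-Hochberg) and a log2 value of at least 2, a change at 1. Named genes were the 10 called coding genes at each extreme with the level in both assays and the same sign in both strains. The 5 highest non-coding genes and the extremes of each list were also named, and others were picked after their values were seen. The members and lists were chosen with earlier results of these data known. Alternatives were the pseudocount, the level, the filter, centring, the transcript, the strain term, the ratio threshold and leaving out each library.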

Additional observations from a re-analysis of the deposited data

How the results depend on the processing

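No paired analysis was possible by replicate number, because the GRO-Seq and RNA-Seq libraries carry none in the labels. Libraries of an assay were paired by strain, through the strain term of the fit. Counts are given higher then lower, and the causes of these moves were not tested. With 2 tags added in place of 10, the ratio change fell in 1084 genes, nascent RNA fell in 1062 and mature RNA at 1 hr fell in 108. With 50 added, the ratio was called higher in 586, the ratio change in 177 and 216, nascent RNA in 303 and 169, mature RNA at 1 hr lower in 20 and at 4 hr lower in 578. At a level of 50 tags (8563 genes) the ratio was higher in 697 and mature RNA at 1 hr lower in 33. With the level required in both assays (6231 genes), the ratio was called in 715 and 630, its change lower in 290, nascent RNA lower in 304 and mature RNA at 1 hr lower in 36. Without a level (18240 genes) the ratio was lower in 2853, and at a threshold of 1 it was called in 2575 and 2631. Without centring the counts were 199 and 5668 for the ratio, 403 and 1307 for nascent RNA, 160 lower for mature RNA at 1 hr, and 737 and 2156 at 4 hr, and the ratio of Cnot1 turned to -0.19, against 2.02. Without the strain term the ratio change was called in 302 and 281. Leaving out 1 library gave 1141 to 1200 and 1085 to 1149 for the ratio, 512 to 691 and 588 to 660 for its change, 584 to 811 and 569 to 625 for nascent RNA, and 245 to 273 and 61 to 87 for mature RNA at 1 hr.

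The shares by mature call were recomputed with alternatives chosen after seeing the data. Of genes with a nascent rise, mature RNA was higher at 1 hr in 24.6% with 2 tags added, 39.3% with 50, 33.4% with both assays and 35.5% without centring, and at 4 hr in 63.1% with 2 and 77.2% with 50. Under 10 kb the 1 hr share was 38.8% with 2, 64.2% with 50, 59.4% with both assays and 56.2% without centring, and over 30 kb it was 11.5% with 50. Of genes with a nascent fall, mature RNA was lower at 1 hr in 3.55% with 50 added and 3.37% without centring, and at 4 hr in 46.3% with 2 added and 62.7% without centring. Leaving out 1 library, the shares of risen genes ran from 24.0 to 31.6% at 1 hr and 61.2 to 69.2% at 4 hr, with 36.1 to 50.0% under 10 kb and 6.88 to 8.58% over 30 kb at 1 hr, and those of fallen genes from 1.23 to 2.46% at 1 hr and 48.1 to 54.0% at 4 hr. The share over 30 kb stayed under that below 10 kb in each of these settings. With 2 residual degrees of freedom, the spread of a gene is set mostly by that of other genes, and nascent values under 20 tags rest on few reads.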
